A study of Mus musculus with 26 samples.

Results

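Mouse neural stem cells that carried the fusion MYBQKI5 were set against neural stem cells that carried eGFP, a green fluorescent protein that served as the control. The samples were chosen by the construct and the pool number in their labels. They were 3 MYBQKI5 arrays, 1 from each of pools 1, 2 and 3, and 6 eGFP arrays, with 2 repeats in each of the same 3 pools. These are 9 of the 26 arrays of the series, and all 23152 genes that could be named were compared. The 2 eGFP repeats of a pool were averaged, and the groups were paired by pool number.

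The study delivered parts of MYB and QKI to neural stem cells by lentivirus and read their RNA. In every group the cells came from C57BL6 wild-type embryos of age E14.5, and each group carried a lentiviral transgene, the eGFP controls included. Total RNA was labelled with biotin and read on Affymetrix arrays. Further groups of the same pools carried MYBtr, MYBQKI6 or QKItr, with 3 arrays each. The labels state neither the promoter of the transgenes nor the meaning of tr. They also do not say whether a pool is a separate set of embryos or a separate culture, so the p-values cover only the scatter of these samples, which may be technical. RNA was taken from cells in bulk, and fewer cells of a type and less RNA per cell cannot be told apart.

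MYB is a transcription factor that binds short DNA motifs and is best known for keeping blood progenitors immature, and Kit and Cdk6 are among its described targets. QKI binds RNA, belongs to the STAR family and acts on splicing, stability and translation of RNA, and in the brain it is known for its part in the maturation of oligodendrocytes. The MYB-QKI fusion is the typical lesion of angiocentric glioma, a slow-growing brain tumour of childhood. Interferons switch on antiviral genes, many of them through promoter elements with GAAA repeats.

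The control cells carried the transcripts of neural stem cells. On the log2 scale of the deposited values, the eGFP means were 10.55 for Sox2, 10.79 for Fabp7, 11.11 for Vim and 9.29 for Nes, all markers of neural stem cells and radial glia. The array medians of the 9 arrays lay between 5.61 and 5.74, and the lower quartile, percentile 25, lay between 3.78 and 3.87. Of the 16 stem cell markers measured, 1 had an eGFP mean below 5.61, the lowest of these array medians, and this was Prom1 at 3.47. The array medians are over probe sets, whereas the gene values are means of probe sets. Olig1 and Olig2, transcription factors of the oligodendrocyte lineage, were bright as well, at 11.13 and 11.6. Of the markers of other cells, 11 of 12 for microglia and immune cells and 12 of 14 for vascular cells and fibroblasts lay below 5.61. So did 13 of 14 for myelinating oligodendrocytes and 11 of 18 for neurons. Of the astrocyte markers only 3 of 15 did, so astrocyte transcripts were widely present in the control cells. Among the microglial genes, Itgam stood at 3.8 and Ptprc at 3.54 with eGFP, and only Cd68, a lysosomal protein not limited to microglia, was above 5.61, at 7.04.

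Promoter sequences were examined for genes that rose. A set of 15 genes with the largest rises was examined for the 6-letter MYB motif cores TAACGG or CAACGG and for the related cores TAACTG or CAACTG, searched on both strands in the 250 bases before the annotated start. Irgm2, Igtp and Kif26b are shown because a core lies before their outermost start. Cxcl10 is shown with Irgm2 and Igtp because all of them hold GAAA, any 2 bases and GAAA again, the form of the interferon-responsive element. Cxcl10 and this element were chosen after the interferon genes had been seen. Sequences are from RefSeq on GRCm38.p6 and run 5′ to 3′ on the gene's strand, and the capitals mark the matches. Positions count back from the start.

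Irgm2 (chr11:58214727-58214976, plus strand; CAACTG at -158 and GAAACTGAAA at -64): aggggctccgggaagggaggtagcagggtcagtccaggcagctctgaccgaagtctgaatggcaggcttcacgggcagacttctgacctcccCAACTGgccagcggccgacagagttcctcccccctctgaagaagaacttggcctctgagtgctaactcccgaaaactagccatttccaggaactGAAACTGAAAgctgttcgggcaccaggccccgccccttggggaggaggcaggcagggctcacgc
Igtp (chr11:58199306-58199555, plus strand; CAGTTA at -108, the reverse complement of TAACTG, and GAAACTGAAA at -34): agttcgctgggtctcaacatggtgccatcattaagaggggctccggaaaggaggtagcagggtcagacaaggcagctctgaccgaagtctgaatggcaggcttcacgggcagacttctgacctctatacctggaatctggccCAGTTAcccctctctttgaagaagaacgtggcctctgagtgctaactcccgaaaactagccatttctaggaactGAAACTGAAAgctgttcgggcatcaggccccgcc
Kif26b (chr1:178528875-178529124, plus strand; CAACTG at -103): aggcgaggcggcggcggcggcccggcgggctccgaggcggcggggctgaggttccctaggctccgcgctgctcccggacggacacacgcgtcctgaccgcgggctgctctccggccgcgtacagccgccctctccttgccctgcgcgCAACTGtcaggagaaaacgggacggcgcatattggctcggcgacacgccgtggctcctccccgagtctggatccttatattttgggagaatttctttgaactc
Cxcl10 (chr5:92348890-92349139, minus strand; GAAAGTGAAA at -213): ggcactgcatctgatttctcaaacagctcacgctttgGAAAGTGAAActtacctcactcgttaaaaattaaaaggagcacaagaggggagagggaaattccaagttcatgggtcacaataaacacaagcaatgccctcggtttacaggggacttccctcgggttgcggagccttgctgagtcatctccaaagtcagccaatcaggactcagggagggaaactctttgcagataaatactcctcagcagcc

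Of the 15 genes with the largest rises, 13 had a promoter in the reference table and 5 of these held a MYB core, which is 5 of their 17 promoters (29.4%). Prelp and Tcirg1 are the remaining pair, and their cores lie before other annotated starts than the outermost one and are not printed. Kit, Myb and Cdk6 held no core in this window. MYB cores are common: counted per promoter, they were found in 24.4% of the 311 promoters of genes called higher, in 16.5% of the 346 promoters of genes called lower and in 22.4% of the promoters of all genes tested. CAACTG also has the letters CANNTG of an E-box, so a match does not single out MYB. The paired GAAA letters were in 5.47% of the promoters of genes called higher, 1.45% of those called lower and 2.91% of those of all genes tested. They were in 7 of the 12 promoters of the interferon response list, or 58.3%, and in 4 of the 17 promoters of the 15 largest rises, or 23.5%. These were the promoters of Irgm2, Igtp and Cxcl10 printed above and 1 of Tcirg1. The Irgm2 and Igtp sequences are nearly the same around the match, and Tcirg1 has several promoters in the table. The promoters counted are therefore not independent of each other. The Tcirg1 match lies at -199 on the other strand, before a start other than the outermost one. These matches are descriptions of sequence and show no binding.

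With the fusion, Myb was higher together with Kit, Prune2, Zmynd10 and the interferon-induced GTPases Irgm2 and Igtp, while the largest falls were in Fbxo32, Xylt1 and Agt. Limma called 609 of 23152 genes (2.63%) at a Benjamini-Hochberg adjusted p under 0.05, of which 295 (1.27%) were higher and 314 (1.36%) lower with MYBQKI5. All 609 pointed the same way in 3 of 3 pools. A call in a fit paired by pool favours such agreement, so it is not separate support, and the share over all genes was not counted. The rises were larger than the falls: 110 of the genes called higher and 61 of those called lower differed by at least 2-fold. The smallest difference called was 0.39 on the log2 scale and the median size was 0.81. The pool means of the groups did not overlap for 497 of the called genes (81.6%), against 2601 (11.2%) of all genes. The call count depended on single pools of a group. It was 317, 375 and 167 without MYBQKI5 of pool 1, 2 and 3, and 196, 134 and 377 without eGFP of pool 1, 2 and 3. Leaving out eGFP of a pool removed both of its repeats. With only repeat 1 of eGFP in each pool the count was 613, and with only repeat 2 it was 529. Without the pool as a block it was 46 (32 higher and 14 lower), all among the 609. With the MYBQKI5 and eGFP columns fitted alone it was 436, of which 359 were among the 609. The rest of the 609 were not called in that fit, which has fewer columns to estimate the spread, and the cause was not tested.

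**Figure D1:**
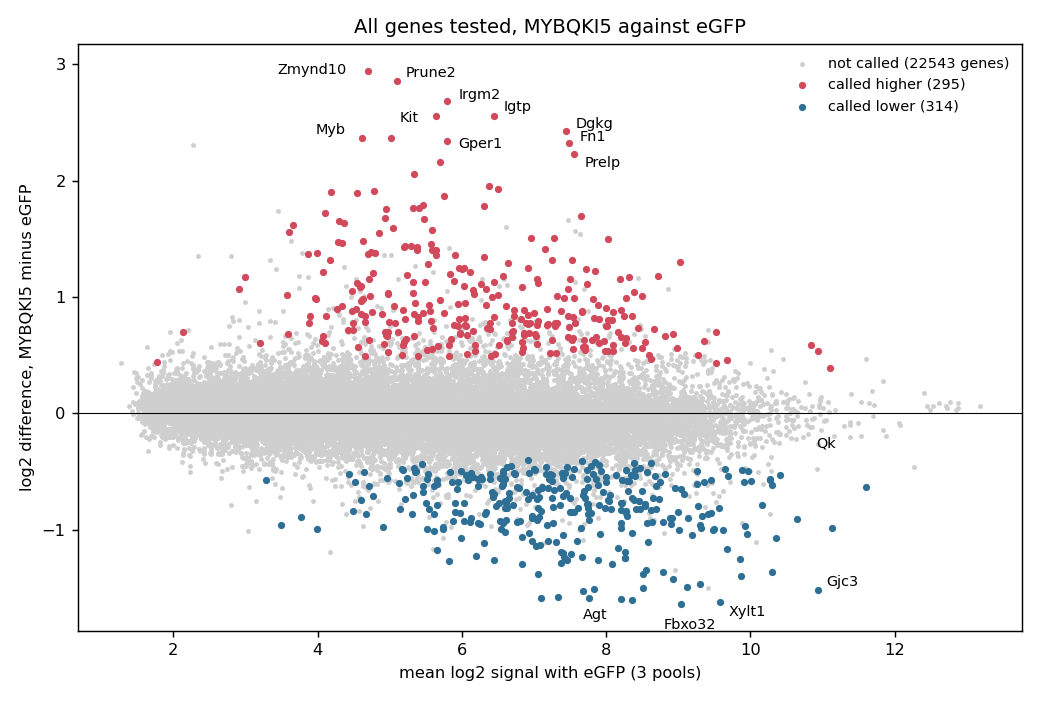
Each dot is 1 of 23152 genes, with its mean log2 signal over the 3 eGFP pools on the horizontal axis and the log2 difference of MYBQKI5 minus eGFP on the vertical axis. The 295 genes called higher (red) reach 2.94 for Zmynd10, and the 314 called lower (blue) reach -1.64 for Fbxo32.

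Myb itself checks the labels. Its gene signal with eGFP was 4.30, 4.37 and 5.18 in pools 1, 2 and 3, and with MYBQKI5 it was 6.82, 6.80 and 7.34. Every MYBQKI5 array lay above every eGFP array, the highest of which was at 5.29. The rise was 2.37 (SE 0.21, 5.17-fold, limma adjusted p = 9.8e-05). Qk, the mouse gene for QKI, had 10.95, 10.78 and 10.61 with eGFP and 10.70, 10.74 and 10.60 with MYBQKI5, and the groups overlapped. Its difference was -0.10 (SE 0.16, limma adjusted p = 0.87).

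The probe sets of Myb differed widely among themselves. Their positions in the gene were not used here, so they are not placed on exons. Of the 18 Myb probe sets, 6 were called over all probe sets, against 283 of 233753 in all (0.121%). Probe set 17239679 had 6.57, 6.18 and 7.21 with eGFP and 12.77, 11.92 and 12.22 with MYBQKI5, a difference of 5.65 (SE 0.28, limma adjusted p = 1.7e-04). Probe set 17232001 differed by 5.46 (limma adjusted p = 7.5e-04), and probe set 17239681 by 0.09 with all its values below 2.00. The Myb gene value thus averages probe sets that differ by more than 5 units of log2 signal with probe sets near 0. Whether the responding probe sets read the delivered transgene or the cells' own Myb was not tested.

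None of the 15 Qk probe sets was called, and 1 of them stood apart from the others. In a test of each probe set against the others of its gene, Qk had an adjusted p = 0.048 by the Simes method. By the F test its adjusted p was 0.9, so the departure depended on the method. Probe set 17340760 had 11.23, 11.15 and 11.23 with eGFP and 12.82, 11.84 and 11.76 with MYBQKI5, so the groups did not overlap. Its difference was 0.93 (95% confidence interval 0.31 to 1.56, limma adjusted p = 0.32 over all probe sets), while the other 14 lay between -0.44 and 0.25. It also stood at 12.69, 12.39 and 11.68 with QKItr, at 10.75, 11.02 and 11.06 with MYBtr and at 10.93, 11.10 and 10.89 with MYBQKI6. This probe set was thus high with MYBQKI5 and QKItr and lower with MYBtr and MYBQKI6 in each pool. The difference between MYBQKI5 and MYBQKI6 at this probe set was 1.16 (95% confidence interval 0.54 to 1.79), with a limma adjusted p = 0.89 over all probe sets.

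**Figure D2:**
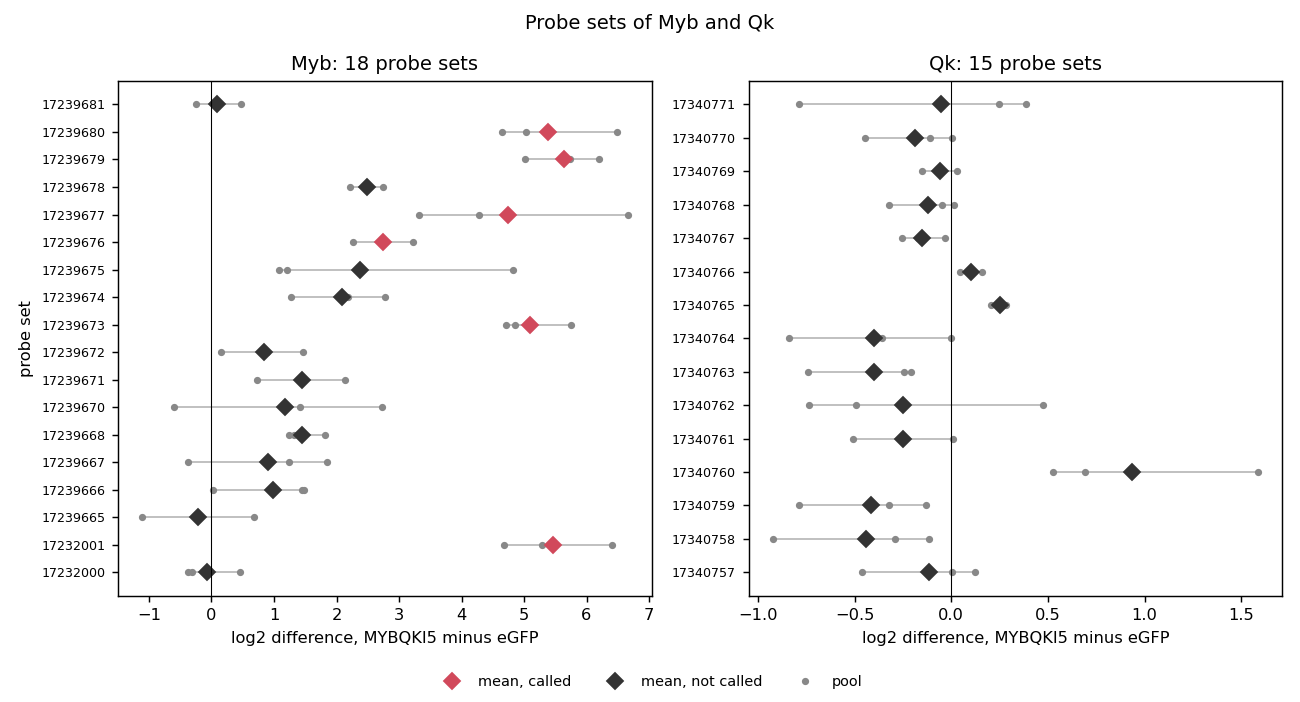
Log2 difference of MYBQKI5 minus eGFP for each of the 18 Myb and 15 Qk probe sets, with diamonds for the mean over pools (red where called) and small dots for the pools. For Myb, 6 probe sets were called and 17239681 lies at 0.09, and for Qk, 17340760 lies at 0.93 with the other 14 between -0.44 and 0.25.

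The largest rise was in Zmynd10, which is needed to assemble the dynein arms of motile cilia. Zmynd10 had 4.32, 4.39 and 5.37 with eGFP in pools 1, 2 and 3 and 7.04, 7.80 and 8.08 with MYBQKI5. No MYBQKI5 value came near the eGFP values. The rise was 2.94 (SE 0.27, 7.70-fold, limma adjusted p = 1.1e-04). Prune2, which encodes a protein with a BCH domain, had 4.87, 5.44 and 4.98 with eGFP and 7.80, 7.99 and 8.08 with MYBQKI5. It rose by 2.86 (SE 0.22, 7.24-fold, limma adjusted p = 2.5e-05). The groups were again fully apart, and the MYBQKI5 arrays were closer to each other than the eGFP pool means were.

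Kit, the receptor for stem cell factor, had 4.99, 5.64 and 6.28 with eGFP and 7.76, 8.20 and 8.60 with MYBQKI5. Both groups were lowest in pool 1 and highest in pool 3, and the difference within a pool was 2.77, 2.56 and 2.32. Kit rose by 2.55 (SE 0.18, 5.86-fold, limma adjusted p = 1.7e-05). Its ligand gene Kitl, which encodes stem cell factor and was looked up after Kit was seen among the rises, rose by 1.22 (limma adjusted p = 0.0024). Cdk6, the G1 kinase partner of D-type cyclins, had 7.56, 6.89 and 7.38 with eGFP and 8.73, 8.64 and 8.98 with MYBQKI5. It rose by 1.51 (SE 0.20, 2.85-fold, limma adjusted p = 0.0021).

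Kit and Cdk6 were the clearest members of the list of described MYB targets. Of its 12 members measured, 3 were called higher and 1 lower, and the list median was 0.07 against -0.01 for all genes. Ada, which encodes adenosine deaminase, rose by 0.78 (limma adjusted p = 0.016), but stood at -0.04 by its brightest probe set alone. Mat2a, which makes S-adenosylmethionine, fell by 0.61 (limma adjusted p = 0.021). Bcl2, an inhibitor of cell death, differed by 0.51 (adjusted p = 0.24). Neither Ada nor Mat2a was called without the pool block. Ada lost its call without MYBQKI5 of pool 1 or 3 (adjusted p = 0.0611 and 0.0955) or eGFP of pool 1 or 2 (0.0883 and 0.0943), and Mat2a lost it without any MYBQKI5 array (0.0514, 0.0737 and 0.0857 for pools 1, 2 and 3) or eGFP of pool 2 or 3 (0.14 and 0.0713).

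Dgkg, a diacylglycerol kinase, had 7.41, 7.39 and 7.54 with eGFP and 9.84, 9.88 and 9.88 with MYBQKI5. Its values were nearly the same in all pools of a group, and it rose by 2.42 (SE 0.24, limma adjusted p = 2.3e-04). Anks1, an ankyrin repeat adaptor that binds Eph receptors, rose by 1.93 in pool 3, 1.94 in pool 1 and 1.91 in pool 2 (SE 0.14, limma adjusted p = 1.7e-05). Kif26b, a kinesin family member, rose by 2.36 (limma adjusted p = 1.1e-04). Gper1, a G protein-coupled receptor that responds to oestrogen, went from 4.88 to 6.63 in pool 1, from 5.60 to 8.72 in pool 2 and from 6.91 to 9.06 in pool 3. Its groups overlapped because the eGFP value of pool 3 exceeded the MYBQKI5 value of pool 1, and within pools it rose by 2.34 (SE 0.22, limma adjusted p = 1.2e-04). Tcirg1, which encodes a subunit of the vacuolar proton pump, rose by 2.06 (limma adjusted p = 0.0024).

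Of the genes of the matrix list, 3 were among the 15 largest rises. Fn1, fibronectin, had 6.29, 8.13 and 8.04 with eGFP and 8.94, 10.37 and 10.12 with MYBQKI5. It was low in pool 1 of both groups, and it rose by 2.32 (SE 0.37, 5.00-fold, limma adjusted p = 0.0057). Prelp, a small leucine-rich proteoglycan of connective tissue, went from 6.98, 7.70 and 7.97 to 9.86, 9.49 and 9.98 and rose by 2.22 (SE 0.30, limma adjusted p = 0.0022). Fras1, a basement membrane protein, rose by 2.16 (SE 0.23, limma adjusted p = 3.7e-04). Itga5, the integrin chain that pairs with Itgb1 to bind fibronectin, rose by 1.21 (limma adjusted p = 0.0096), and Itgb8, another integrin chain, fell by 0.90 (limma adjusted p = 0.04). Of the 30 genes of matrix, basement membrane and integrins, these 4 were called higher and Itgb8 was the 1 called lower. The list median was 0.00, with 15 differences above 0 and 15 below. Each fit that left out 1 pool of 1 group kept 4 of the 5 calls and lost that of Itgb8. Without the pool block 2 were left, and Fn1 then had an adjusted p = 0.18.

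**Figure D3:**
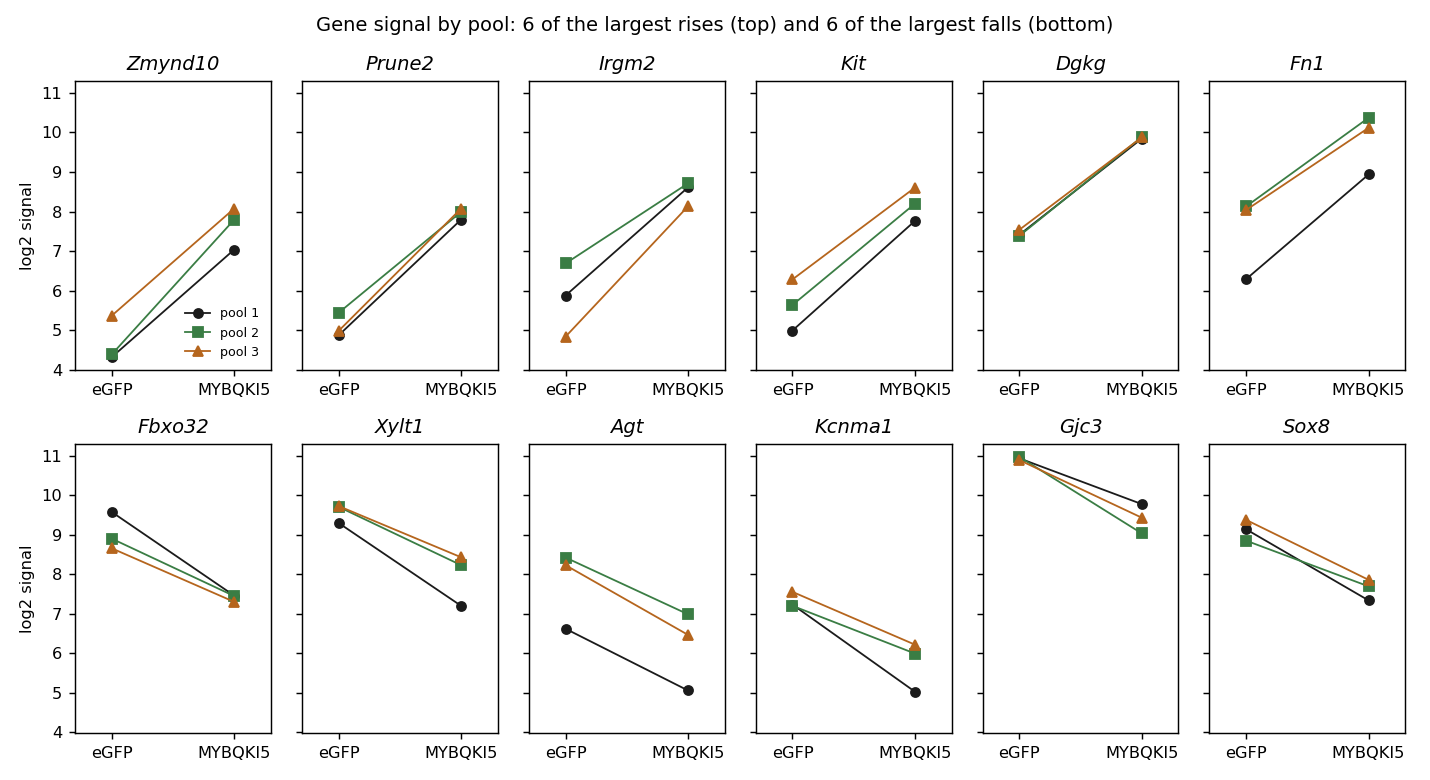
Log2 signal with eGFP (left of each panel) and MYBQKI5 (right) in pools 1, 2 and 3, joined by pool, for 6 of the largest rises (top) and 6 of the largest falls (bottom). The lines run the same way in each panel, and Agt shows how far pools can lie apart, with 6.62, 8.42 and 8.23 under eGFP.

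Genes of the interferon response rose together, and their eGFP level differed between pools. Irgm2 and Igtp encode immunity-related GTPases that interferon induces. Irgm2 had 5.88, 6.69 and 4.84 with eGFP in pools 1, 2 and 3 and 8.61, 8.71 and 8.13 with MYBQKI5. Igtp had 6.94, 7.12 and 5.29 with eGFP and 9.28, 9.18 and 8.55 with MYBQKI5. For both genes the eGFP value of pool 3 was the lowest, and the groups did not overlap. Irgm2 rose by 2.68 (SE 0.39, 6.43-fold, limma adjusted p = 0.0032) and Igtp by 2.55 (SE 0.23, 5.87-fold, limma adjusted p = 1.0e-04). They lie near each other on chromosome 11, and whether their probe sets tell the members of the family apart was not tested. Cxcl10, a chemokine that draws T cells, went from 6.46, 7.62 and 5.03 to 8.43, 8.55 and 8.00 and rose by 1.95 (SE 0.37, limma adjusted p = 0.013). Its difference was 0.93 in pool 2 and 2.96 in pool 3.

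Of the 15 genes of the interferon response list, 6 were called higher and none lower. The list median was 1.24, against -0.01 for all genes, and 14 of the 15 differences were positive. The 6 were Mx1, an antiviral GTPase (1.62, limma adjusted p = 0.018), Irf7, a transcription factor of the pathway (1.39, adjusted p = 0.026), Isg15, a ubiquitin-like protein (1.35, adjusted p = 0.042), Stat2 (1.24, adjusted p = 0.011), Rsad2, the antiviral protein viperin (1.15, adjusted p = 0.033) and Oas2, an RNA sensor (1.03, adjusted p = 0.016). Usp18, which removes Isg15 from proteins, had a larger difference of 1.66 but an adjusted p = 0.13. Its values were 7.96, 8.87 and 5.57 with eGFP and 9.06, 9.31 and 9.00 with MYBQKI5. Ifit3 was the member below 0, at -0.23.

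The interferon differences were largest in pool 3. The list median was 0.72 in pool 1, 0.68 in pool 2 and 2.16 in pool 3. The mean level of the list was 6.21, 6.79 and 5.10 with eGFP and 6.88, 7.43 and 7.19 with MYBQKI5, so the control of pool 3 was low while the MYBQKI5 array of pool 3 was close to that of the other pools. With MYBtr, Irgm2 had 9.73, 9.69 and 6.89, and with MYBQKI6 it had 9.59, 10.15 and 7.43, lower in pool 3 than in the other pools. With QKItr it had 6.20, 5.57 and 4.66. The count of 6 members fell to 0 without MYBQKI5 of pool 3, to 0 without eGFP of pool 2, to 1 without eGFP of pool 1 and to 2 without eGFP of pool 3, and it was 7 without MYBQKI5 of pool 1 and 6 without MYBQKI5 of pool 2. It was also 0 without the pool block and 0 with only the brightest probe set of each gene. The mean level of the microglia and immune markers was 4.40 to 4.54 over the eGFP pools and 4.32 to 4.56 over the MYBQKI5 pools.

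**Figure D4:**
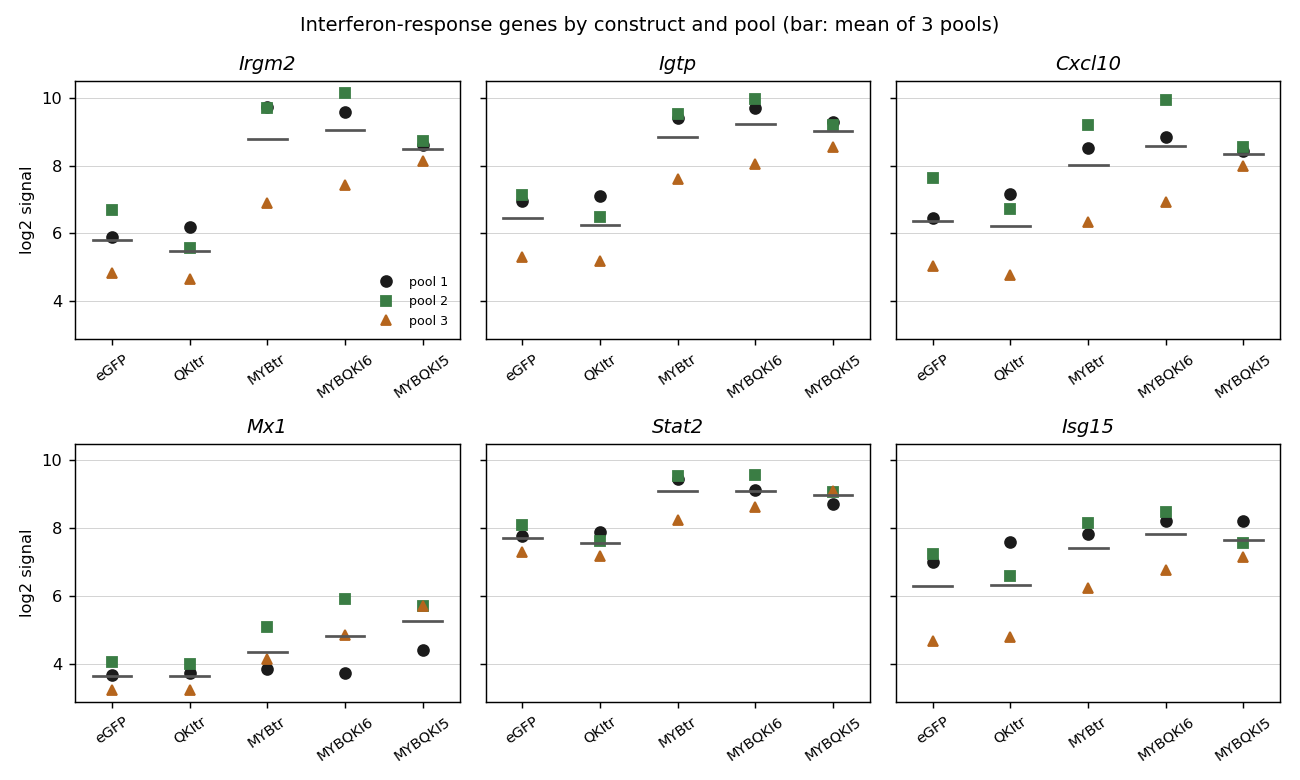
Log2 signal of Irgm2, Igtp, Cxcl10, Mx1, Stat2 and Isg15 for each construct, with 1 marker per pool and a bar at the mean of the 3 pools. With eGFP, pool 3 (triangles) is the lowest in each panel, as for Irgm2 at 4.84, while with MYBQKI5 Irgm2 reaches 8.13 in that pool.

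The largest fall was in Fbxo32, the muscle-atrophy subunit of a ubiquitin ligase also known as atrogin. Fbxo32 had 9.57, 8.90 and 8.66 with eGFP in pools 1, 2 and 3 and 7.46, 7.45 and 7.30 with MYBQKI5. The MYBQKI5 arrays lay close together and below each eGFP value, and the fall was -1.64 (SE 0.22, 3.12-fold, limma adjusted p = 0.0023). Xylt1, which starts the glycosaminoglycan chains of proteoglycans, fell by 1.62 (SE 0.30, limma adjusted p = 0.013). Agt, angiotensinogen, which astrocytes make in the brain, had 6.62, 8.42 and 8.23 with eGFP and 5.06, 6.99 and 6.47 with MYBQKI5. The groups of Agt overlapped, but within pools it fell by 1.59 (SE 0.24, limma adjusted p = 0.0044).

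Gjc3, a connexin of glia, had 10.93, 10.97 and 10.89 with eGFP and 9.77, 9.03 and 9.43 with MYBQKI5. The eGFP pool means were alike, and Gjc3 fell by 1.52 (SE 0.20, limma adjusted p = 0.0022). Kcnma1, a calcium-activated potassium channel, went from 7.23, 7.20 and 7.55 to 5.03, 6.00 and 6.22 and fell by 1.58 (limma adjusted p = 0.0055). Kcnj10, the inward-rectifier channel Kir4.1 of glia, fell by 1.38 (limma adjusted p = 0.045), with groups that overlapped. Ednrb, the endothelin receptor B, fell by 1.37 (limma adjusted p = 0.013), with its largest difference of -2.08 in pool 1. Adgrg1, an adhesion receptor of neural progenitors, also differed most in pool 1, by -2.22, and fell by 1.40 (limma adjusted p = 0.038).

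Further falls were seen in Ptprv (-1.53, limma adjusted p = 0.004), Igsf21, a synaptic adhesion molecule (-1.51, adjusted p = 0.0024), Ttyh1, a membrane protein of neural cells (-1.50, adjusted p = 0.016), and Rev3l, which copies past damaged DNA (-1.47, adjusted p = 0.0024). Slc27a1, a fatty acid transporter, fell by 1.43 (limma adjusted p = 0.011) and Tle2, a Groucho co-repressor, by 1.38 (limma adjusted p = 0.011).

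Of these 30 genes named for size, 21 were called in each of the 6 fits that left out 1 pool of 1 group, and 11 were called without the pool block. The 11 were Zmynd10, Prune2, Kit, Dgkg, Myb, Kif26b, Prelp, Fras1, Anks1, Fbxo32 and Ptprv, so falls were fewer among them than rises. Calls were lost on leaving out 1 pool of 1 group for Cxcl10 (1.35, adjusted p = 0.051 without MYBQKI5 of pool 3, and 1.77, 0.084 without eGFP of pool 1), for Sox8 (-1.34, 0.067 and -1.25, 0.066 in the same fits) and for Tle2 (adjusted p of 0.0615, 0.0673 and 0.0814 without MYBQKI5 of pool 1 or 3 or eGFP of pool 2). Xylt1, Ttyh1, Slc27a1 and Ednrb each lost the call without MYBQKI5 of pool 1 or 3 or eGFP of pool 1 or 2, with adjusted p between 0.054 for Ednrb and 0.10 for Ttyh1. Adgrg1 and Kcnj10 lost it in every such fit except the one without eGFP of pool 3, with adjusted p of up to 0.215 for Adgrg1 and 0.247 for Kcnj10.

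Oligodendrocyte precursor markers held the most falls of any cell type list. Of 14 markers, 7 were called lower and none higher, the list median was -0.39 and 4 of the 14 differences were positive. Sox8, a transcription factor of the lineage, had 9.14, 8.85 and 9.37 with eGFP and 7.34, 7.69 and 7.86 with MYBQKI5, with no overlap. It fell by 1.49 (SE 0.27, limma adjusted p = 0.01). Cspg4, the proteoglycan NG2, had 7.27, 7.57 and 7.30 with eGFP and 5.61, 6.62 and 6.34 with MYBQKI5 and fell by 1.19 (SE 0.19, limma adjusted p = 0.0059). Olig1 fell by 0.99 (limma adjusted p = 0.036), Olig2 by 0.63 (adjusted p = 0.042), Pcdh15 by 0.94 (adjusted p = 0.042), Lhfpl3 by 0.93 (adjusted p = 0.042) and Sox6 by 0.49 (adjusted p = 0.025).

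Not all precursor markers went the same way. Pdgfra, the growth factor receptor that defines these cells, had 6.56, 5.73 and 6.19 with eGFP and 6.83, 6.70 and 6.68 with MYBQKI5, a difference of 0.58 (limma adjusted p = 0.22). Sox10 was at 4.69 with eGFP and differed by 0.07. The count of 7 fell to 2, 2 and 1 without MYBQKI5 of pool 1, 2 and 3 and to 1, 2 and 3 without eGFP of pool 1, 2 and 3. None was called without the pool block or with only the brightest probe set of each gene. Of the list, Cspg4 kept its call in each fit that left out 1 pool of 1 group.

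Astrocyte markers had the lowest median of the 24 lists, -0.49, with few calls. Of the 15 markers, 2 were called lower and 1 higher, 5 differences were positive, and the list median was -0.50, -0.34 and -0.27 in pools 1, 2 and 3. Gfap, the astrocyte filament protein, fell by 1.07 (limma adjusted p = 0.04) and S100b, a calcium-binding protein, by 0.94 (adjusted p = 0.033), while Slc4a4, a bicarbonate transporter, rose by 1.01 (adjusted p = 0.013). Hepacam, a glial adhesion protein, had a difference of -1.11 but an adjusted p = 0.097. The count of 3 became 0, 2 and 1 without MYBQKI5 of pool 1, 2 and 3 and 0, 1 and 2 without eGFP of pool 1, 2 and 3. It was 0 without the pool block and 0 with only the brightest probe set of each gene. Gfap kept its call only without eGFP of pool 3 (adjusted p elsewhere 0.0799 to 0.228), and S100b only without MYBQKI5 of pool 2 or 3 (elsewhere 0.067 to 0.153). Slc4a4 lost its call without MYBQKI5 of pool 1 or 3 (0.0514 and 0.0673) or eGFP of pool 1 (0.0613).

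The lists of other cell types each gave at most 1 call. Of 14 myelin markers, Cnp was the 1 called, with a rise of 0.79 (adjusted p = 0.0089) that stood at -0.10 with the median of its probe sets. Of 18 neuron markers, Elavl4, an RNA-binding protein of neurons, was the 1 called (0.67, adjusted p = 0.022). Of 12 microglial and immune markers, Cd68 was the 1 called (-0.92, adjusted p = 0.015), and of 14 vascular and fibroblast markers none was called at an adjusted p under 0.05, with Kdr at -0.52 (adjusted p = 0.15). The calls of Cnp, Elavl4 and Cd68 were lost without the pool block. Leaving out 1 pool of 1 group ended the call of Cnp without MYBQKI5 of pool 3 or eGFP of pool 2 (adjusted p = 0.0557 and 0.0511), of Elavl4 without MYBQKI5 of pool 2 or 3 or eGFP of pool 2 or 3 (0.067 to 0.147), and of Cd68 without MYBQKI5 of pool 2 or eGFP of pool 1 or 2 (0.0719 to 0.105).

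Neural stem cell identity genes were mostly level. Of 16 markers, Nes was called lower and Vim higher, and the list median was -0.02. Nes, an intermediate filament of stem cells, had 9.36, 9.25 and 9.28 with eGFP and 8.38, 8.12 and 8.50 with MYBQKI5 and fell by 0.96 (SE 0.18, limma adjusted p = 0.011). Its call was lost without MYBQKI5 of pool 3 (adjusted p = 0.0674), without eGFP of pool 1 or 2 (0.0655 and 0.0814) and without the pool block (0.179). Vim rose by 0.39 (adjusted p = 0.047), a call that no fit without a pool of either group kept. The transcription factors Sox2 and Sox9 differed by 0.00 and -0.04, and Egfr by -0.50 (adjusted p = 0.22).

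**Figure D5:**
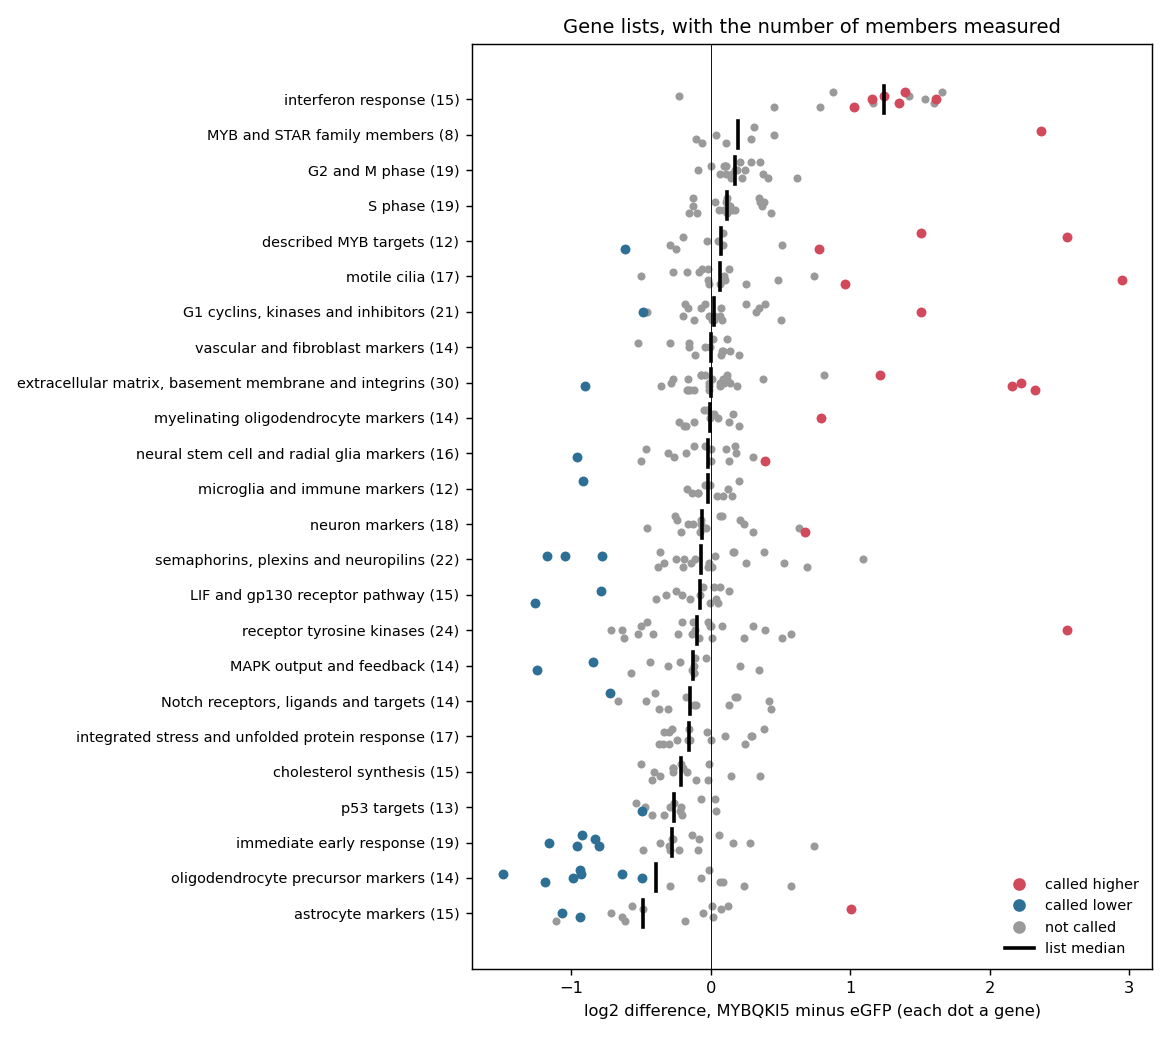
Log2 difference of MYBQKI5 minus eGFP for each member of the 24 gene lists, 1 dot per gene, with red for called higher, blue for called lower and a black bar at the list median. The interferon response list has the highest median, 1.24, and the lists of astrocyte and oligodendrocyte precursor markers the lowest, -0.49 and -0.39.

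Among 19 immediate early genes, which respond to growth factor signals within minutes, 5 were called lower and none higher. The list median was -0.28 overall and -0.28, -0.30 and -0.30 in pools 1, 2 and 3, and 4 of the 19 differences were positive. They were Egr1 (-0.83, limma adjusted p = 0.011), Egr2 (-0.92, adjusted p = 0.011), Ier2 (-0.80, adjusted p = 0.023), Nr4a1 (-0.96, adjusted p = 0.041) and Fos (-1.16, adjusted p = 0.0496). Egr1 had 8.76, 8.50 and 8.59 with eGFP and 7.70, 7.88 and 7.77 with MYBQKI5, with no overlap, whereas Ier2 overlapped between groups. By the brightest probe set alone Nr4a1 stood at 0.03 and Egr2 at -0.05, and no member of the list was called. The count of 5 became 0, 3 and 2 without MYBQKI5 of pool 1, 2 and 3 and 0, 1 and 3 without eGFP of pool 1, 2 and 3, and it was 0 without the pool block.

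Among 14 genes of MAPK output and feedback, Spry1 and Spry4, inhibitors that the pathway itself induces, fell by 1.24 (limma adjusted p = 0.041) and 0.85 (adjusted p = 0.04). Spry1 lost its call without any 1 pool of either group (adjusted p = 0.0581 to 0.213), Spry4 did so except without eGFP of pool 1 (0.0922 to 0.228), and neither was called without the pool block (0.456 and 0.172). Lifr encodes a receptor chain for the cytokine LIF. It had 7.57, 7.25 and 7.57 with eGFP and 5.90, 6.48 and 6.23 with MYBQKI5. Its groups did not overlap, and it fell by 1.26 (SE 0.18, limma adjusted p = 0.0032). Stat3, which carries the signal of this receptor, fell by 0.79 (adjusted p = 0.024) but was not called without MYBQKI5 of pool 1 or 3 or eGFP of pool 1 or 2 (0.0982 to 0.137) or without the pool block (0.145). The 13 other genes of the LIF and gp130 list, such as Il6st at -0.39 (adjusted p = 0.34), were not called. Of 24 receptor tyrosine kinases, Kit was the 1 called. Of 14 Notch genes, Lfng, which modifies Notch receptors, was the 1 called (-0.73, adjusted p = 0.0499). Its call was lost without any 1 pool of either group (0.0706 to 0.24), without the pool block (0.661), with arrays centred on the median (0.0578) and with quantile normalization (0.0616). Hes1 differed by -0.47 (adjusted p = 0.062).

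Plxna2, a semaphorin receptor, had 9.17, 9.26 and 9.13 with eGFP and 8.18, 8.06 and 8.18 with MYBQKI5. The pool values of each group were alike, with eGFP as means of its repeats, and Plxna2 fell by 1.05 (SE 0.11, limma adjusted p = 3.7e-04). Plxnb3 fell by 1.18 (adjusted p = 0.0024) and Sema5b by 0.78 (adjusted p = 0.011), and these were the 3 called of 22 semaphorins, plexins and neuropilins. Sema5b lost its call without MYBQKI5 of pool 1 (0.0546) or eGFP of pool 1 or 2 (0.0686 and 0.0511), and without the pool block only Plxna2 was called. Among 17 genes of motile cilia, Ccdc39, which sets the length of the ciliary repeat, rose by 0.97 (adjusted p = 0.0058) beside Zmynd10. The Ccdc39 call was lost without the pool block (0.183), with the brightest probe set alone (0.148) and with the median of probe sets (0.131). Foxj1, the master regulator of motile cilia, differed by -0.50 (adjusted p = 0.15). Of the 17 genes, 15 had an eGFP mean below 5.61, the lowest median of the 9 arrays.

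Cell cycle and stress genes gave few calls. Beside Cdk6, Ccnd3, a D-type cyclin, was the 1 other gene called among 21 G1 regulators, with a fall of 0.49 (limma adjusted p = 0.028). Of the fits that left out 1 pool of 1 group, only that without eGFP of pool 3 kept the Ccnd3 call (adjusted p = 0.0716 to 0.156 in the others), and it was lost without the pool block (0.218). None of 19 S phase genes and none of 19 genes of G2 and M phase was called in limma at an adjusted p under 0.05. Top2a, the topoisomerase of dividing cells, had 5.00, 7.24 and 9.33 with eGFP and 5.45, 8.34 and 8.90 with MYBQKI5. The pools thus differed far more than the constructs did, and the difference was 0.45 in pool 1, 1.10 in pool 2 and -0.43 in pool 3. The list median for G2 and M phase was 0.04, 1.03 and -0.47 in the same order. Of 13 p53 targets, Trp53inp1 was the 1 called (-0.50, adjusted p = 0.03), a call lost without the pool block (0.183) and without any 1 pool of either group but eGFP of pool 3 (0.0799 to 0.162). None was called of 17 genes of the integrated stress and unfolded protein response, with Ddit3 at 0.38 (adjusted p = 0.17), or of 15 genes of cholesterol synthesis, with Dhcr7 at -0.36 (adjusted p = 0.45).

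The other constructs of the same pools, which are the second fusion MYBQKI6 and MYBtr and QKItr, give the nearest comparison. The comparisons of all constructs with eGFP share the eGFP arrays, so their likeness is not read as a result. The direct contrasts rest on the same MYBQKI5 arrays, and in the main fit the eGFP arrays enter them only through the spread of the shared fit. MYBQKI5 against QKItr called 841 of 23152 genes (3.63%), 454 higher (1.96%) and 387 lower (1.67%), and 60 without the pool block. Zmynd10 was higher by 2.87 (limma adjusted p = 1.5e-04), Prune2 by 2.81 (adjusted p = 3.1e-05), Irgm2 by 3.01 (adjusted p = 0.0017) and Igtp by 2.75 (adjusted p = 4.9e-05) than with QKItr. Agt was lower by 2.02 on the log2 scale (-2.02, adjusted p = 9.9e-04), Ttyh1 differed by -1.83 (adjusted p = 0.0049), Smoc1, a matrix protein that was not called against eGFP (-1.50, adjusted p = 0.063), by -1.81 (adjusted p = 0.022) and Xylt1 by -1.76 (adjusted p = 0.0074).

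The largest differences from QKItr also took in a pair of genes with dim signal. Mup6, of a family of near-identical urinary protein genes that probe sets may not tell apart, was higher by 2.68 (limma adjusted p = 0.034). It had 2.64, 2.14 and 2.01 with eGFP, below percentile 25 of every array, and 6.08, 2.95 and 4.70 with MYBQKI5, and it was not called against eGFP (2.31, adjusted p = 0.08). Styx, a phosphatase-like protein, was lower by -2.39 (adjusted p = 0.047) and differed from eGFP by -1.19 (adjusted p = 0.44). The count against QKItr was 543, 642 and 226 without MYBQKI5 of pool 1, 2 and 3 and 420, 225 and 820 without QKItr of pool 1, 2 and 3.

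Against MYBtr and against MYBQKI6 limma called no gene at an adjusted p under 0.05, with 1926 and 1017 of 23152 genes at an unadjusted p under 0.05. Prune2 had 7.80, 7.99 and 8.08 with MYBQKI5, and its difference from MYBtr was -1.21 (95% confidence interval -1.67 to -0.74, adjusted p = 0.12) and from MYBQKI6 -0.75 (-1.21 to -0.28). Anks1 differed from MYBtr by -0.58 (-0.88 to -0.29, adjusted p = 0.34) and Cdk6 by -0.77 (-1.20 to -0.34, adjusted p = 0.39). Among these rises MYBQKI5 thus gave lower values than MYBtr with intervals that leave out 0, which the adjusted p over all genes did not call. For Kit the difference from MYBtr was -0.41 (-0.80 to -0.02) and from MYBQKI6 -0.25 (-0.64 to 0.15). Fbxo32 differed from MYBtr by 0.76 (0.28 to 1.23, adjusted p = 0.45), a smaller fall with MYBQKI5.

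For other genes the intervals took in 0 and were wide. Kif26b differed from MYBtr by 0.05 (95% confidence interval -0.42 to 0.51) and from MYBQKI6 by -0.01 (-0.48 to 0.45), and Dgkg by 0.01 (-0.51 to 0.52) and -0.35 (-0.87 to 0.16). Irgm2 differed from MYBtr by -0.28 (-1.11 to 0.54) and from MYBQKI6 by -0.57 (-1.39 to 0.26). With 3 pools, differences of this size could not be told from 0, which does not show that the constructs act alike. The number of genes called against MYBtr was 21 without MYBtr of pool 3 and 0 without any other pool of either group, and against MYBQKI6 it was 1 without MYBQKI6 of pool 1.

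Some single probe sets departed from the rest of their gene. A test of each probe set against the others of its gene found 305 of 20833 genes with several probe sets (1.46%) by the Simes method, and 78 by the F test. P4hb, protein disulfide isomerase, had the smallest Simes p. Its probe set 17273181 had 4.32, 5.09 and 4.47 with eGFP and 10.38, 8.34 and 7.58 with MYBQKI5, a difference of 4.14 (SE 0.47, limma adjusted p = 0.011), while its other probe sets differed by -0.31 to 0.14. This probe set was also high with MYBtr (9.37, 8.01 and 8.11) and MYBQKI6 (9.89, 8.69 and 8.25), and at 5.78, 5.13 and 5.05 with QKItr. P4hb as a gene therefore did not share the response of this probe set.

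Flnc, filamin C, gave the opposite picture. Its probe set 17456660 had 11.21, 11.32 and 9.60 with eGFP and 5.30, 4.89 and 4.02 with MYBQKI5, a difference of -5.97 (SE 0.52, limma adjusted p = 0.0054). It was as low with QKItr, at 5.56, 4.29 and 5.49, so it stood high in the eGFP group alone of the 5 construct groups, and the other Flnc probe sets differed by -1.21 to 1.35. Tspan4, a tetraspanin, had a probe set, 17484953, at 4.49, 4.57 and 5.14 with eGFP and 1.58, 2.09 and 1.65 with MYBQKI5 (-2.96, limma adjusted p = 0.036). The most departing probe sets of Avl9 (-2.03, adjusted p = 0.11) and Macf1 (1.71, adjusted p = 0.30) were not called on their own.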

How the data were processed

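RNA of mouse neural stem cells was read on Affymetrix arrays, and the deposited values run from 0.22 to 14.6, which was taken as log2 signal. How the authors normalized them is not given in the sources used here, nor is the genome build of the array. Of 269751 probe sets, 233753 named 1 gene symbol, 5106 several and 30892 none. A gene's value is the mean log2 value of the probe sets that name it alone, with a median of 8 per gene. Of the 23152 symbols, 20875 were current in RefSeq, 2189 were updated and 88 did not match. No filter on dim signal was used. Each column mapped to 1 sample.

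The 2 eGFP repeats of each pool were averaged, and 15 columns (5 constructs, 3 pools) were fitted in limma 3.58.1 under R 4.3.3 with construct and pool as terms. Genes are called at a Benjamini-Hochberg adjusted p under 0.05. A log2 difference is MYBQKI5 minus the other group, and SE and 95% confidence intervals are moderated. Samples of the same pool number deviated together (30 pairs, r = 0.31 to 0.72, median 0.53, against -0.23 for 60 other pairs). Deviations were taken from each group's mean over its 3 pools, so they cancel within a group. A positive r within pools thus forces the other pairs down, and the -0.23 is not a separate comparison. The pairing comes from the pool numbers in the labels.

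Named were the 15 largest rises and 15 largest falls among genes called with 1 direction in every pool, leaving out predicted, clone, small RNA and olfactory or vomeronasal receptor names, then Myb and Qk, up to 4 members of each of 24 lists with the smallest p, the 5 largest called differences each way against the other constructs, and the 5 genes with the smallest Simes p. Genes outside this rule are named in counts of calls or were picked after their values were seen. Samples, lists and rules were chosen with earlier results of these data known. Lists are described by counts and medians without a set test, and some members were not analysed here. Promoters are from RefSeq, GRCm38.p6, and the search for paired GAAA letters was added after the data were seen. The fit was tested on simulated data. Plots were made in matplotlib 3.10.9 (Python 3.11.15). The number of arrays limits the precision.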

Additional observations from a re-analysis of the deposited data

Results flagged for a closer look

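Among the 6 eGFP arrays, 3 of the 120 named genes checked had 1 array apart from the others by Dixon's test at the 95% level, where chance gives about 1 in 20. Mup6 was highest on the second repeat of pool 1, at 3.14 with the next array at 2.20. Sema5b was highest on the second repeat of pool 3, at 7.95 with the next at 7.74. Sox6 was lowest on the first repeat of pool 1, at 7.98 with the next at 8.26. Each gap lay within 1 unit of log2 signal, and the causes were not tested.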

How the results depend on the processing

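The 30 genes named for size kept their direction in all 17 alternatives run, and all 30 kept their call with arrays centred on the median, quantile normalization, dim genes left out, the 6 MYBQKI5 and eGFP columns alone, eGFP arrays entered singly, eGFP repeat 1 alone and without eGFP of pool 3. The fit without the replicate block called 46 genes against eGFP, where the pairing by pool gives 609, and 60 against QKItr, where it gives 841, and it left 11 of the 30. The count against eGFP was 1375 with the 6 eGFP arrays entered singly, 126 with the highest probe set for the gene (19 of the 30 called) and 248 with the median of probe sets (24 of the 30), and against QKItr it was 223 and 425 with these probe set choices. With the 6 MYBQKI5 and eGFP columns alone, the count against eGFP was 436. The calls lost there included Ccnd3, Cd68, Elavl4, Mat2a, S100b, Sox6, Spry4, Trp53inp1 and Vim. Leaving out 1 pool of 1 group gave 134 to 377 genes against eGFP, 225 to 820 against QKItr, 0 to 21 against MYBtr and 0 to 1 against MYBQKI6. Against MYBtr, 5 genes were called with eGFP arrays entered singly, 6 with dim genes left out and 1 with an intensity trend and robust prior. Probe sets called were 283, and 137 without the replicate block, 570 with dim probe sets left out and 9 to 95 on leaving out 1 pool. Genes with a departing probe set were 305, and 78 without the replicate block and 87 to 610 on leaving out 1 pool. Ada (-0.04) and Nr4a1 (0.03) reversed with the highest probe set and Cnp (-0.10) with the median of probe sets. The causes were not tested.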

Other observations

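Beyond the genes named by rule, which were picked here after their values were seen, further innate immune genes were called higher with MYBQKI5. The RNA sensors Ifih1 and Dhx58 rose by 1.70 (limma adjusted p = 0.024) and 1.68 (adjusted p = 0.0056), and the immunity-related GTPase Iigp1 rose by 1.59 (adjusted p = 0.011). The chemokine Cxcl11 rose by 1.15 (adjusted p = 0.034) and the nucleotide kinase Cmpk2 by 1.31 (adjusted p = 0.038).

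Among other rises, Tmod1, which caps actin filaments, rose by 1.89 (limma adjusted p = 9.3e-04), Ndrg1, a stress-responsive gene, by 1.75 (adjusted p = 0.0032), Tnfaip6, a hyaluronan-binding protein, by 1.78 (adjusted p = 0.0087), Gch1, the first enzyme of tetrahydrobiopterin synthesis, by 1.64 (adjusted p = 0.0084) and Gli3, a transcription factor of Hedgehog signalling, by 1.46 (adjusted p = 0.029). Dll4, a Notch ligand outside the Notch list, rose by 1.37 (adjusted p = 0.011), and Wif1, a secreted Wnt inhibitor, by 1.13 (adjusted p = 0.0041). Among other falls, Slc38a3, a glutamine transporter, fell by 1.34 (adjusted p = 0.017), Cdh10, a cadherin, by 1.28 (adjusted p = 0.002), Prdm1, a transcriptional repressor, by 1.22 (adjusted p = 0.0013), Fgf1 by 1.21 (adjusted p = 0.017) and the glutamate receptors Grm5 and Grm3 by 1.13 (adjusted p = 0.036) and 1.06 (adjusted p = 0.042).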
